A study of Homo sapiens with 12 samples.

Results

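The genes described are 7 that are commonly used to recognise macrophages or that encode scavenger receptors: CD68, LYZ, CD86, CD36, MRC1, CD163 and MSR1. They were taken by symbol from the tables of gene expression and are 7 of the 20003 genes used. All 7 symbols were found in every sample. Messenger RNA was sequenced from NB4, a cell line of acute promyelocytic leukemia that carries the PML-RARα fusion, and from Kasumi-1, a line of acute myeloid leukemia with the t(8;21) translocation and the AML1-ETO fusion. Each line gave 3 control samples, which received the solvent DMSO, and 3 samples incubated with 1 μM OGP46, a diterpenoid made from oridonin. The incubation was 48 h by the sample labels, while a figure legend of the study gives a longer time. The labels do not say whether the 3 samples of a group came from separate cultures, and the study speaks of repeated experiments without tying them to the samples, so p-values measure only the spread between these samples. In bulk RNA, fewer cells of a type and less RNA per cell cannot be told apart.

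Macrophages take up particles, modified lipoproteins and cell debris through surface receptors of several unrelated families. CD68 is a heavily glycosylated protein of the lysosome and endosome membrane, and LYZ encodes lysozyme, the secreted enzyme that cleaves the bacterial cell wall and is made by monocytes, macrophages and granulocyte precursors. CD36 is a class B scavenger receptor that binds oxidised lipoproteins and fatty acids, and MSR1 is a class A scavenger receptor for modified lipoproteins. CD163 takes up haemoglobin bound to haptoglobin, MRC1 is the mannose receptor, and CD86 is a co-stimulatory ligand for CD28 and CTLA4 on T cells. In myeloid cells, many such genes are controlled by the transcription factor PU.1 together with C/EBP and AP-1 factors.

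Expression was given as FPKM, fragments divided by exon length and by all mapped fragments of the sample, so that levels can be compared between genes. In GENCODE release 29, on build GRCh38, CD68 lies on chromosome 17 (7579467 to 7582113, plus strand), LYZ on chromosome 12 (69348341 to 69354234, plus strand), CD86 on chromosome 3 (122055366 to 122121139, plus strand) and CD36 on chromosome 7 (80369575 to 80679277, plus strand). MRC1 lies on chromosome 10 (17809344 to 17911170, plus strand) and CD163 on chromosome 12 (7470813 to 7503893, minus strand). Exons of CD68 overlap those of AC016876.2 on the same strand and AC016876.1 on the other, and LYZ exons overlap the antisense gene AC020656.1. CD163 shares exon space with its paralog CD163L1. Whether the counting used strand is not given in the sources used here, so the values of these genes can include reads of their neighbours.

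The 250 bases before the start of 3 of the genes are shown here, because CD68 passed the test in NB4, CD86 had the largest log2 change of the 4 members tested there, and CD163 was listed at 0 in 11 of 12 samples. They are from the RefSeq promoter table (GRCh38.p14), which also holds 6 starts of CD36 and a second start of CD86. Capitals mark exact matches, on either strand, to GAGGAA (the PU.1 core), TGANTCA (AP-1), TTGCNNAA (C/EBP) and TGACNNNGC (the antioxidant response element). None of the matches overlap one another in these 3 windows.
CD68, chr17:7579388-7579637, plus strand: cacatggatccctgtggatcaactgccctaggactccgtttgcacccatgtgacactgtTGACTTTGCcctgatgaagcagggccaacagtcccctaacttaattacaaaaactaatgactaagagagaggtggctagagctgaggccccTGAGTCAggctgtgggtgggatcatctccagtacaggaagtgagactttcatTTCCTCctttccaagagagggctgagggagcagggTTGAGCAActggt
CD86, chr3:122055112-122055361, plus strand: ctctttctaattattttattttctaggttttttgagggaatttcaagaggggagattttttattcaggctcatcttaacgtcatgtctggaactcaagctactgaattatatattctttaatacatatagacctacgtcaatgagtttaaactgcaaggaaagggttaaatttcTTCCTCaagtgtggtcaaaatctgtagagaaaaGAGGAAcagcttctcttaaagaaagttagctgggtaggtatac
CD163, chr12:7503778-7504027, minus strand: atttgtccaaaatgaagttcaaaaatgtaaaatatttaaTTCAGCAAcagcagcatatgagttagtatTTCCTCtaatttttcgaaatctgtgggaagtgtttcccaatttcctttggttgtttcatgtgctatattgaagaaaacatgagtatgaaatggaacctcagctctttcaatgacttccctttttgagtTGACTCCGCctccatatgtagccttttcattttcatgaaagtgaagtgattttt
The CD68 window held 1 match to each of the 4 motifs, with first bases 191 (antioxidant response element), 100 (AP-1), 48 (PU.1 core) and 13 (C/EBP) bases before the start. The CD86 window held 2 PU.1 cores, 76 and 43 bases before the start, and none of the others, and the window of the second CD86 start held none of the 4. The CD163 window held a C/EBP, a PU.1 and an antioxidant response match. Of the 6 CD36 windows, 3 held a PU.1 core, 1 an AP-1 match and 1 an antioxidant response match. Among all 35116 promoters of the table, 23.6% held the PU.1 core, 6.57% the AP-1, 9.05% the C/EBP and 10.9% the antioxidant response letters. These matches describe the letters alone. Parts of the CD68 and CD163 windows lie inside the gene as GENCODE draws it, since RefSeq places the start further downstream.

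The 7 genes covered nearly the whole range of expression. LYZ was the highest, and in NB4 controls its mean was above that of 99.4% of all genes. CD68 came next in NB4 and Kasumi-1 alike, above 78.7% and 78.6% of genes in the controls. CD86 and CD36 were near the middle in NB4 (above 53.2% and 51.2% of genes), and MRC1, CD163 and MSR1 were at or near 0 in both lines. Between neighbours in this order, the samples of LYZ and CD68 did not overlap in any group, nor did those of CD68 and CD86, whereas CD86 and CD36 overlapped in both NB4 groups.

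**Figure D1:**
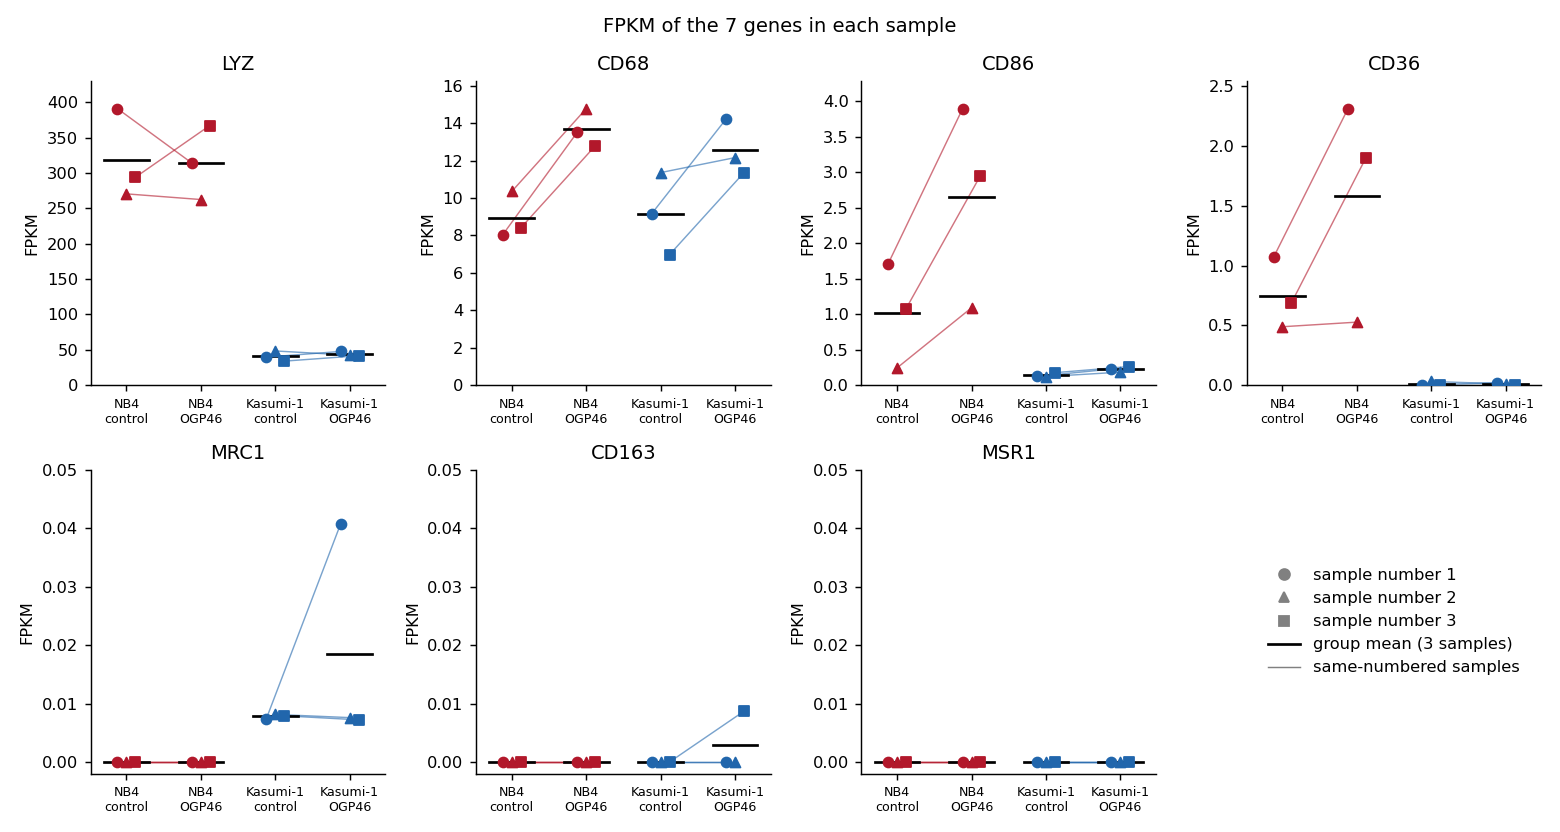
FPKM of each of the 7 genes (vertical axis, a separate linear scale per gene) in the 12 samples, grouped by cell line and treatment. Symbols give the sample number, thin lines join same-numbered control and OGP46 samples and bars are the means of 3 samples. The means of LYZ, CD86 and CD36 are higher in NB4 than in Kasumi-1, CD68 is alike in both, and the lower row stays under 0.05 FPKM.

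In NB4 cells, CD68 rose with OGP46. Its level was 8.04, 10.3 and 8.39 FPKM in control samples 1, 2 and 3 and 13.5, 14.8 and 12.8 FPKM in the OGP46 samples with the same numbers. All OGP46 samples lay above all control samples, which was true of 32.7% of the 11750 genes tested in NB4. The means were 8.93 ± 1.24 and 13.7 ± 1.01 FPKM (SD, n = 3), a ratio of 1.53. On the log2(FPKM + 0.1) scale the change was 0.62 (standard error 0.12, 95% interval 0.35 to 0.88), for which limma gave an adjusted p of 0.0399, and 0.0011 once the sample number was a block. A gene was called changed when its adjusted p was below 0.05 and its change was at least 0.58 in size, and CD68 was the only 1 of the 4 members tested that was called higher without the block, beside 1.45% of all genes tested. Exact permutation of the 6 samples gave a two-sided p of 0.1 for CD68, the smallest that 3 against 3 samples allow.

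The median log2 change of all genes tested in NB4 was 0.18, so most genes were somewhat higher with OGP46 in the values as deposited. This median was 0.06 after TPM scaling and −0.04 after median centring, and relative to the median CD68 was higher by 0.44 under each of these. The call ended under both scalings (adjusted p from limma 0.149 and 0.238) and when any 1 of the 6 NB4 samples was left out, with changes between 0.55 and 0.73.

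CD86 was also higher with OGP46 in NB4, but the samples of each group were far apart. The controls had 1.71, 0.242 and 1.08 FPKM and the OGP46 samples 3.90, 1.09 and 2.95 FPKM. The groups overlapped, because OGP46 sample 2 lay below control sample 1, yet each OGP46 sample was above the control of the same number. The means were 1.01 ± 0.737 and 2.65 ± 1.43 FPKM (SD, n = 3), a log2 change of 1.44 (standard error 0.63, 95% interval −0.01 to 2.89, adjusted p = 0.174 from limma). Leaving out 1 sample gave a log2 change between 0.74 (without control sample 2) and 1.96 (without OGP46 sample 2). With the sample number as a block, the interval was 1.11 to 1.76 and the adjusted p 1.3e-04, so that CD86 was called higher. With the block and median centring together the change was 1.22 with an adjusted p of 0.0044, and CD86 was then the only member called. In that setting 188 of 11750 genes tested were called higher.

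CD36 showed a smaller difference of the same kind. It was at 1.07, 0.488 and 0.688 FPKM in the NB4 controls and at 2.31, 0.527 and 1.90 FPKM with OGP46. Samples 1 and 3 differed from their controls by 1.24 and 1.21 FPKM, and sample 2 by 0.0385 FPKM. The log2 change was 0.83 (standard error 0.49, 95% interval −0.29 to 1.94, adjusted p = 0.281 from limma). Blocked by sample number it was called higher (adjusted p = 0.0180), and with the block and median centring it was not (0.121). Under the block alone, 3 of the 4 members tested were called higher, CD68, CD86 and CD36, beside 5.06% of all genes tested.

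LYZ did not pass in NB4 with or without the block. Its controls had 390.9, 270.4 and 293.8 FPKM and its OGP46 samples 314.0, 262.4 and 367.1 FPKM. The groups overlapped, and of the same-numbered samples only number 3 was higher with OGP46. The log2 change was −0.01 with a 95% interval of −0.38 to 0.36 (adjusted p by limma 0.960, blocked 0.932).

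The remaining 3 genes gave no level to compare in NB4. MRC1, CD163 and MSR1 were listed at 0 in all 6 NB4 samples and were not tested. FPKM carry no read counts, so no limit of detection can be given for them.

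**Figure D2:**
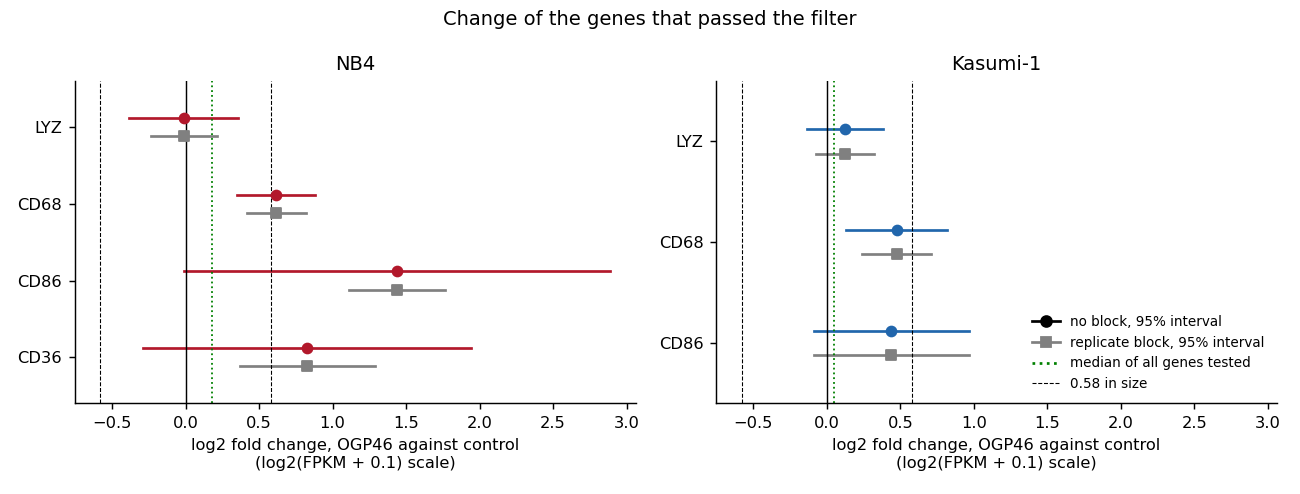
Log2 fold change of OGP46 against control on the log2(FPKM + 0.1) scale (horizontal axis) for the genes tested in each cell line, with 95% intervals from limma without and with the replicate block. The dotted line is the median of all genes tested, the dashed lines mark 0.58 in size. In NB4 the block narrows the interval of CD86 from −0.01 to 2.89 to 1.11 to 1.76, and in Kasumi-1 no gene passes.

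The spread within the NB4 groups followed the sample number. CD36, LYZ and CD86 had their lowest value in sample 2 of the control group and again in sample 2 of the OGP46 group, as 21.4% of the 11750 genes did, and CD68 had its highest value there in both groups, as 20.5% did. Of 6 markers of monocytes and macrophages that were tested in NB4, 5 were also lowest in sample 2 of both groups (ADGRE1, CD14, CSF1R, FCGR1A and ITGAM), and of 5 promyelocyte markers 4 were highest (AZU1, CTSG, MPO and PRTN3). The exceptions were ITGAX and ELANE. ITGAX was lowest in control sample 2 but, with OGP46, in sample 3 (1.29 FPKM). ELANE was highest in sample 3 of both groups (14.5 FPKM in the control and 1.39 FPKM with OGP46). CD14, the lipopolysaccharide co-receptor of monocytes, was at 0.260, 0.0622 and 0.120 FPKM in the controls and 1.13, 0.342 and 0.655 FPKM with OGP46. CTSG, the granule protease cathepsin G, was at 18.2, 86.3 and 29.5 FPKM in the controls and 5.82, 40.7 and 9.45 FPKM with OGP46. With both samples numbered 2 left out, an alternative chosen after seeing the data, CD68 (log2 change 0.67, adjusted p = 0.0073 from limma), CD86 (1.26, 0.0023) and CD36 (1.19, 0.0040) were all called higher. In that fit 478 of 11766 genes tested were called higher.

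**Figure D3:**
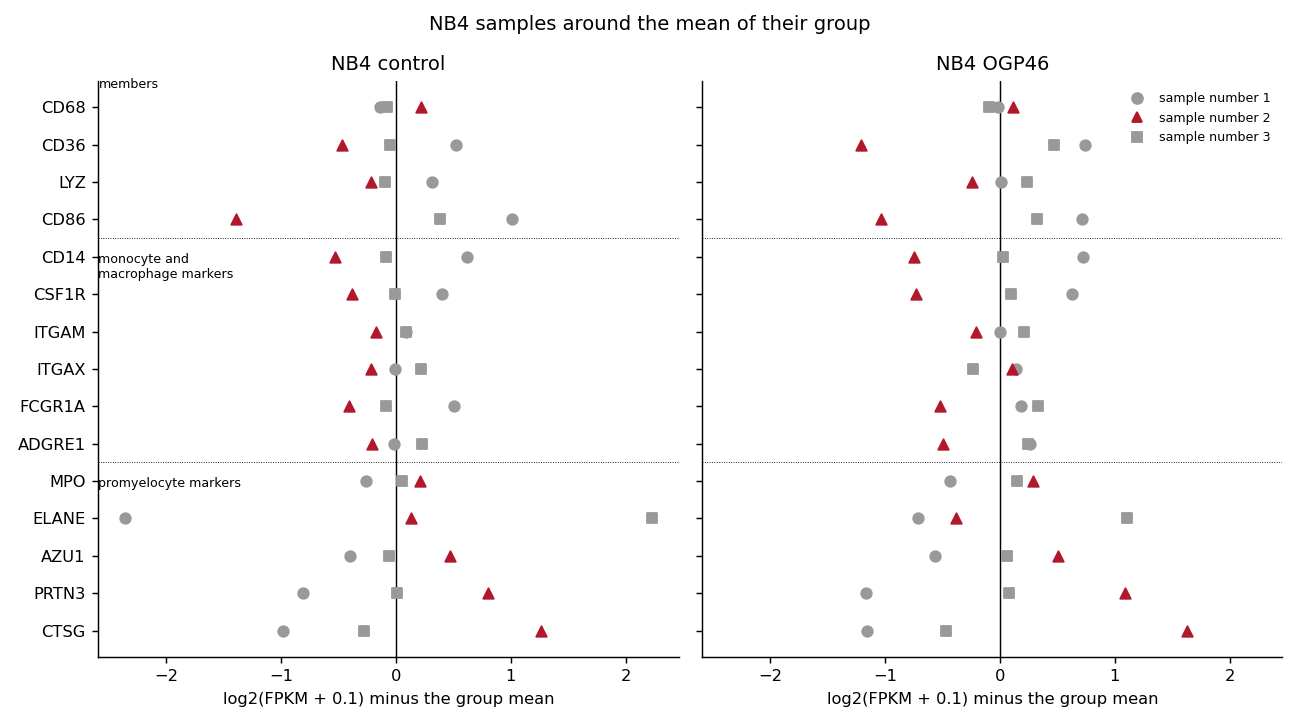
Deviation of each NB4 sample from the mean of its group on the log2(FPKM + 0.1) scale (horizontal axis), for the 4 tested members, 6 monocyte and macrophage markers and 5 promyelocyte markers. Triangles are the samples numbered 2, which lie on the low side for CD36, LYZ and CD86 and on the high side for CD68 in both groups.

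In Kasumi-1 cells, 3 members were tested and 0 were called with or without the block, beside 0.0169% of 11835 genes called higher without it and 0.27% with it. CD68 was at 9.16, 11.4 and 6.97 FPKM in the controls and at 14.2, 12.2 and 11.4 FPKM with OGP46. Each OGP46 sample was above the control of its number, but the groups overlapped by less than 0.01 FPKM at control sample 2 and OGP46 sample 3. The means were 9.16 ± 2.19 and 12.6 ± 1.48 FPKM (SD, n = 3), a log2 change of 0.47 (standard error 0.15, unadjusted p = 0.0123, adjusted p = 0.193 from limma). With the block the adjusted p was 0.0441 while the change stayed under 0.58, so CD68 was not called. It was the only member of the 3 with an unadjusted p below 0.05, which 1852 of the 11835 genes tested had.

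CD86 was low in Kasumi-1, at 0.121, 0.119 and 0.174 FPKM in the controls and 0.225, 0.182 and 0.260 FPKM with OGP46. All OGP46 samples lay above all controls, as for 17.4% of the genes tested in this line. The log2 change of 0.44 (standard error 0.24, 95% interval −0.09 to 0.97) gave adjusted p-values of 0.394 (limma, no block) and 0.289 (blocked). LYZ was at 39.4, 48.2 and 33.8 FPKM in the controls and 47.5, 42.3 and 41.4 FPKM with OGP46. These groups overlapped, and the log2 change was 0.12 (95% interval −0.13 to 0.38, adjusted p = 0.630 from limma).

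The other members were too low to be tested in Kasumi-1, where the mean over 6 samples had to reach 0.1 FPKM. CD36 was listed at 0 in control samples 1 and 3 and OGP46 sample 3, and at 0.0298, 0.0199 and 0.00917 FPKM in control sample 2 and OGP46 samples 1 and 2. MRC1 was at 0.00739, 0.00814 and 0.00791 FPKM in the controls and 0.0408, 0.00760 and 0.00722 FPKM with OGP46, so that 1 OGP46 sample stood above the other 5. CD163 was at 0.00869 FPKM in OGP46 sample 3 and at 0 in the other 5 samples, and MSR1 was at 0 in all 6.

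Whether the response to OGP46 differed between the lines was tested directly, as the change in Kasumi-1 minus the change in NB4. In limma without the block 0 of the 4 members tested were called, beside 0% of 12309 genes. An unadjusted p below 0.05 was found for 0 members, beside 1348 of the 12309 genes. The difference was −0.14 for CD68 (95% interval −0.62 to 0.34), −0.999 for CD86 (−2.62 to 0.62), −0.82 for CD36 (−2.09 to 0.45) and 0.14 for LYZ (−0.35 to 0.62). The difference of CD86 lay between −1.52 and −0.30 when 1 sample was left out, and that of CD36 between −1.43 and −0.45. With the block, 0 members and 1.5% of genes were called. CD86 then had an unadjusted p of 0.0010 and an adjusted p of 0.0522 from limma (95% interval −1.49 to −0.51). For CD36 these were 0.0326 and 0.233. A call of CD68 in NB4 and none in Kasumi-1 does not show that the lines differed in its response. CD36 was near 0 in Kasumi-1, so its difference is close to its change in NB4 with the sign turned.

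Before OGP46, the lines differed for 3 of the 4 members tested, all called lower in Kasumi-1, beside 22.7% of 12302 genes called lower and 29.7% called higher. Mean LYZ was 318.4 ± 63.9 FPKM in NB4 controls and 40.5 ± 7.27 FPKM in Kasumi-1 controls (SD, n = 3), 7.87-fold higher in NB4 (log2 difference −2.97, adjusted p = 4.1e-07 from limma). CD86 was 7.32-fold higher in NB4, with means of 1.01 and 0.138 FPKM (log2 difference −1.93, adjusted p = 0.0080). CD36 was 0.488 to 1.07 FPKM in NB4 and 0 to 0.0298 FPKM in Kasumi-1 (log2 difference −2.90, adjusted p = 1.3e-05). For these 3 genes all Kasumi-1 controls lay below all NB4 controls, as for 34.6% of genes. The size of the log2 difference of CD36 depends on the pseudocount, −0.78 with 1 and −5.51 with 0.01, since its values in Kasumi-1 are near 0. For CD86 the difference was −0.75 with a pseudocount of 1 and −2.42 with 0.01.

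CD68 was alike in both lines. Its control means were 8.93 FPKM in NB4 and 9.16 FPKM in Kasumi-1, and the log2 difference was 0.02 with a 95% interval of −0.37 to 0.41 (adjusted p = 0.930 from limma). MRC1 was above 0 in all 3 Kasumi-1 controls and at 0 in the NB4 controls, at levels under 0.01 FPKM that were not tested.

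The identity of the lines and the markers of other cell types were checked beside these values. NB4 control sample 3 held CD34 at 1.31 FPKM and KIT at 1.22 FPKM, 1.35% and 0.95% of their means in Kasumi-1 controls, more than any other NB4 sample. ELANE (14.5 FPKM) and VSIG4 (0.365 FPKM), both far higher in Kasumi-1, were also highest in it among the NB4 samples. Whether this sample holds some RNA or reads of Kasumi-1 was not tested, and low values in it may be affected. The 4 markers of the t(8;21) line summed to 0.155 to 2.81 FPKM in NB4 controls and 255.4 to 291.5 FPKM in Kasumi-1 controls. Without that sample the log2 change in NB4 was 0.58 for CD68 (adjusted p = 0.171 from limma), 1.63 for CD86 (0.305) and 0.80 for CD36 (0.470), and the 3 members called between the controls of both lines were called again. The summed level of the 11 monocyte and macrophage markers was 6.28 to 9.83 FPKM in NB4 controls and 11.03 to 17.2 FPKM with OGP46. In Kasumi-1 it was 6.63 to 7.12 FPKM in the controls and 7.58 to 8.62 FPKM with OGP46. C1QB and C1QC were at 0 in the NB4 controls, and ADGRE1, SIGLEC1, C1QA, C1QB, C1QC and MARCO in the Kasumi-1 controls. Most of the sum in the Kasumi-1 controls was FCGR1A (mean 5.34 FPKM) and CSF1R (1.37 FPKM). The summed level of the 5 promyelocyte markers was 2605 to 3945 FPKM in NB4 controls and 1586 to 2812 FPKM with OGP46. In Kasumi-1 it was 9612 to 11917 FPKM in the controls and 7759 to 8972 FPKM with OGP46. T-cell markers summed to 13.5 to 20.5 FPKM in NB4 controls and 22.7 to 35.0 FPKM with OGP46, nearly all of it CD3D, with CD2 at 0. The 5 dendritic cell markers summed to at most 0.27 FPKM and the 7 erythroid and megakaryocyte markers to at most 1.20 FPKM in any sample. The B-cell markers summed to 7.51 to 15.8 FPKM with MS4A1 at 0, and the endothelial ones to 1.40 to 4.42 FPKM. In NB4 the endothelial sum was 1.66 to 2.13 FPKM in the controls and 2.88 to 4.42 FPKM with OGP46. Nearly all of it was PECAM1, with CDH5 at 0 in NB4. The part of these markers in the changes of the 7 genes was not tested.

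The 7 genes were set beside lists of genes with related roles. Among 21 further macrophage markers, 9 were tested in NB4 and 3 were called higher with OGP46, beside 1.45% of all genes tested. As for CD68, calls of list genes in NB4 without the block hold for the values as deposited alone, since under TPM scaling and under median centring 0 of the 11750 genes tested were called. The 3 genes were ITGAX (an integrin subunit of myeloid cells), MERTK (a receptor tyrosine kinase for the uptake of apoptotic cells) and TYROBP (an adaptor of immune receptors). TYROBP went from 17.2 ± 0.917 to 28.3 ± 2.78 FPKM (SD, n = 3), a log2 change of 0.71 (adjusted p = 0.0278 from limma). Under the block 5 were called higher, beside 5.06% of all genes tested. They were the same 3 genes with CSF1R (the receptor for macrophage colony-stimulating factor) and ADGRE1 (whose mouse counterpart is the F4/80 antigen). The log2 change was 0.60 for both CSF1R and ADGRE1. The highest of the list over all samples was CD4, with a mean of 18.0 FPKM, and it was not called. The median log2 change was 0.60 over the 9 tested markers and 0.18 over all genes. These lists were not chosen independently of earlier results of these data.

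Of 17 other scavenger receptors listed, 8 were tested in NB4 and 0 were called by limma without the block, beside 1.45% of all genes called higher. With it, CXCL16 (a membrane-bound chemokine that binds oxidised lipoprotein) and CLEC7A (the beta-glucan receptor dectin-1) were called higher, beside 5.06% of all genes tested. SCARA3 was called lower, beside 1.15% of all genes. CXCL16 was at 0.655, 0.302 and 0.216 FPKM in the controls and 1.20, 0.898 and 1.40 FPKM with OGP46 (log2 change 1.45). SCARA3 had a log2 change of −1.09 and CLEC7A one of 1.79, both with means under 0.5 FPKM. The highest of the list was SCARB1, the receptor for high-density lipoprotein and like CD36 a class B receptor, with a mean of 50.6 FPKM over all samples, and it was not called.

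Of the genes that act beside CD86 at the contact with T cells, 5 of 11 were tested and 2 were called higher in NB4 (beside 1.45% of all genes), TNFSF9 (the ligand of 4-1BB) and CD276 (B7-H3). Both calls ended under TPM scaling and median centring, as did every call of a gene in NB4 without the block. With the block both were called too, beside 5.06% of all genes (adjusted p from limma 1.6e-04 for TNFSF9 and 0.0023 for CD276). TNFSF9 was at 1.30, 1.21 and 1.13 FPKM in the controls and 3.29, 2.41 and 2.92 FPKM with OGP46 (log2 change 1.17, adjusted p = 0.0226 from limma). CD276 had a log2 change of 0.78 (adjusted p = 0.0383). CD58, the highest of the list with a mean of 2.38 FPKM, was not called.

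Of 15 genes of lipid handling listed beside CD36, 13 were tested in NB4. NPC1, which exports cholesterol from lysosomes, was called higher, beside 1.45% of all genes tested. It went from 2.65 ± 0.0848 to 4.08 ± 0.177 FPKM (SD, n = 3, log2 change 0.60, adjusted p = 0.0335 from limma). This call ended under both scalings. With the block PLIN2, a coat protein of lipid droplets, and PPARG, a lipid-sensing nuclear receptor, were called higher as well (log2 change 1.42 and 0.67). The share of all genes called higher with the block was 5.06%. PLIN2 was at 19.5, 8.85 and 10.7 FPKM in the controls and 56.4, 24.8 and 25.5 FPKM with OGP46. All its OGP46 samples were above all controls, as for 32.7% of the genes tested in NB4. FABP5, a fatty acid binding protein and the highest of the list with a mean of 88.1 FPKM, was not called.

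Of 9 genes of haem handling listed beside CD163, 6 were tested in NB4. HMOX1, the haem oxygenase, and SLC48A1, a haem transporter of the lysosome membrane, were called higher (log2 change 2.34 and 0.78), beside 1.45% of all genes tested. Both were called with the block too, beside 5.06% of all genes tested, but under neither scaling without it. Calls of these genes under the block with median centring are not given. CD163 itself was listed at 0. HMOX1, also the highest of its list with a mean of 8.80 FPKM, was at 6.87, 3.03 and 6.22 FPKM in the controls and 42.9, 14.2 and 29.3 FPKM with OGP46, with the lowest value of each group in sample 2. In Kasumi-1, 0 genes of these 5 lists were called by limma with or without the block. In the test of the difference between the lines, 0 were called without the block. With it PLIN2 (−1.002) was called for a lower change in Kasumi-1, beside 1.4% of 12309 genes.

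**Figure D4:**
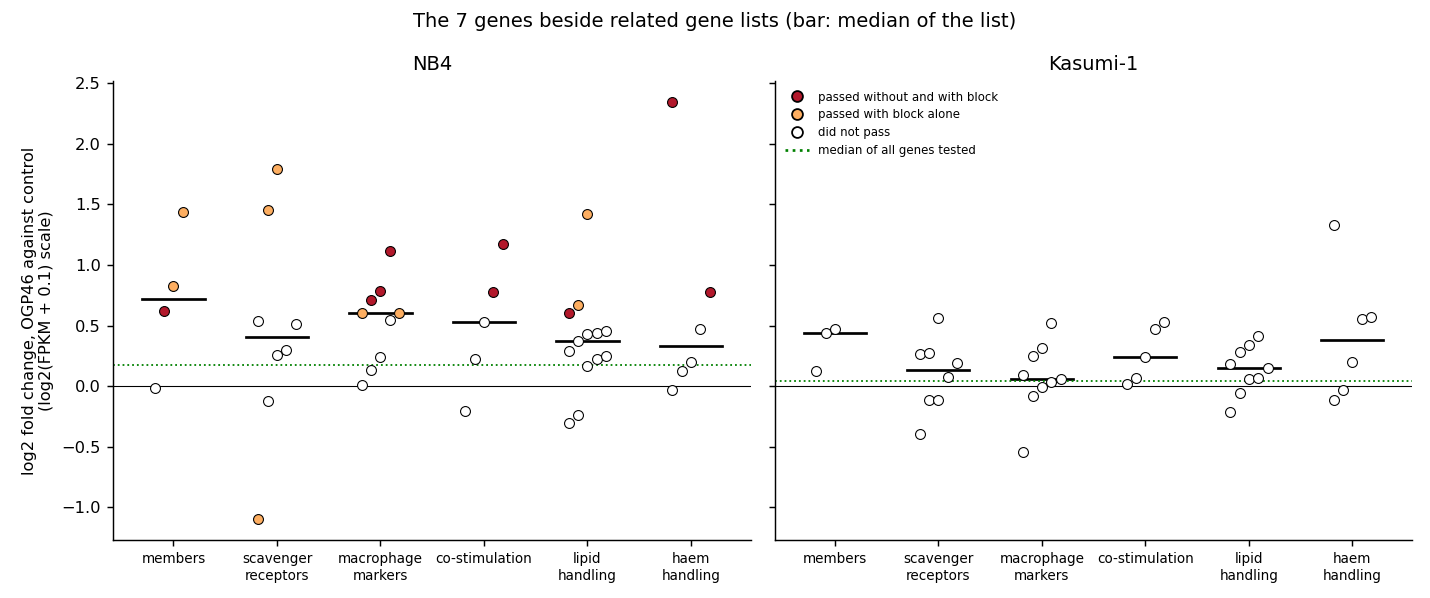
Log2 fold change of OGP46 against control on the log2(FPKM + 0.1) scale (vertical axis) for every tested gene of the 7 members and of 5 lists of related genes, in NB4 and in Kasumi-1. Red points passed the threshold without and with the replicate block, orange points with the block alone, and bars are list medians. In NB4 all points that passed lie above the median of all genes (0.18) except SCARA3 at −1.09, and in Kasumi-1 none passed.

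The genes whose pattern was most like that of a member were sought among the 9940 non-member genes that averaged 1 FPKM or more. To leave out the difference between the lines, which splits the samples into separate clusters, each value was taken as the deviation from the mean of its own line. The difference between control and OGP46 samples of a line stays in these deviations, so a shared change with OGP46 raises r. Over the 12 samples, Pearson r of CD68 was 0.94 with CUL7 and with EXTL3 and 0.93 with ZNF32. CUL7 is a scaffold of a ubiquitin ligase and EXTL3 an enzyme of heparan sulfate synthesis. CD86 was most like TRIM38, a ubiquitin ligase, CYLD, a deubiquitinase (r = 0.98 for both), and IPCEF1 (0.97). CD36 was most like UPK3BL2 (0.97), whose near-identical copies make its value uncertain, SCD5, a fatty acid desaturase, and BTG2 (0.96 for both), and LYZ was most like ZBTB5 (0.91), FCGR1A, the high-affinity IgG receptor, and HSDL1 (0.88 for both). Between members, r was 0.85 for CD36 and CD86, 0.61 for CD36 and LYZ, and 0.25 for CD36 and CD68. It was 0.46 for CD86 and LYZ, 0.27 for CD68 and CD86, and 0.20 for CD68 and LYZ. CD36 was near 0 in Kasumi-1, so its r rest mostly on the NB4 samples. The points share their libraries and the highest of many r are high by selection, so these values describe likeness alone.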

How the data were processed

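Poly(A) mRNA of 12 samples (2 cell lines, control and OGP46, 3 samples each) was sequenced with a stranded library kit. The authors deposited FPKM values per gene symbol. The submitters' processing notes name Trimmomatic, HISAT2, Cufflinks, HTSeq and build hg38, and versions and annotation are not given in the sources used here. FPKM account for gene length and library size. They summed to between 248207 and 310262 per sample, and between 9339 and 9746 genes reached 1 FPKM. Low values gave no common step of 1 read, so the depth is unknown and precision rests on 3 samples per group. Symbols turned into dates, 27 per sample, were left out.

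Groups were taken from the labels. From the FPKM, log2(FPKM + 0.1) was tested with limma version 3.58.1 in R version 4.3.3 (empirical Bayes with trend), over genes that averaged 0.1 FPKM or more in the samples of the fit, with Benjamini-Hochberg adjustment over all genes tested. Genes were called at an adjusted p below 0.05 and a log2 change of at least 0.58 in size, the thresholds of the study's methods. Such changes understate those of low genes. The lines' difference in response was tested in 1 model of 12 samples. The test was tried on simulated data. Deviations from the group means were correlated between samples of the same number (r between 0.20 and 0.62 in NB4 and between 0.16 and 0.40 in Kasumi-1, each of 3 pairs, against −0.47 to 0.22 and −0.28 to 0.10 between different numbers, so that in NB4 the highest of the latter was above the lowest of the former). Over genes that averaged 5 FPKM or more, same-number r was 0.44 to 0.85 in NB4 and 0.42 to 0.62 in Kasumi-1. Between different numbers it was −0.69 to 0.29 in NB4 and −0.44 to 0.08 in Kasumi-1 over those genes. As each same-number r was above 0.1, the numbers in the labels were taken to pair samples. Some r between different numbers were above 0.1 too, so that this limit alone does not separate them. Blocked values are given where a call changes.

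The members and lists were chosen with earlier results of these data known. Named were all members, list genes called in either line with or without the block, the highest gene of each list, and the 3 genes most like each member that averaged 0.1 FPKM or more. One gene of the marker lists is not reported here. Markers named elsewhere were chosen after their values were seen. Alternatives were pseudocounts of 1 and 0.01, no filter, median centring, TPM scaling, a minimum mean of 1 FPKM, no trend, the replicate block alone and with median centring, a joint model of 12 samples and leaving out each sample. Leaving out both NB4 samples numbered 2 was chosen after seeing the data. Likeness over undeviated values is not given, because the lines form clusters. Promoter sequences are RefSeq's and positions GENCODE release 29's.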

Additional observations from a re-analysis of the deposited data

How the results depend on the processing

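The number of members called in NB4 was 1 with the values as described and 0 with a pseudocount of 1, no filter, TPM scaling, median centring or no trend. It was 3 with the replicate block, 3 without the pair of NB4 samples numbered 2, and 0 to 1 when each sample was left out. Where it stayed at 1, the member was CD68 with a pseudocount of 0.01, a minimum mean of 1 FPKM and the joint model, CD86 with the block and median centring, and CD36 without NB4 OGP46 sample 2 (log2 change 1.43, adjusted p = 0.0329 from limma). There CD68 had an adjusted p of 0.0480 but a change of 0.56, under 0.58, and a pseudocount of 1 likewise brought its change to 0.57. Between the controls of both lines the count went from 3 to 1 at a minimum mean of 1 FPKM, where CD36 and CD86 were not tested, and CD86 did not pass without a filter (adjusted p = 0.0807). In Kasumi-1 and for the difference between lines it was 0 under every alternative run, the replicate block included. For the changes not explained by genes or samples left out of the fit, the cause was not tested. Over all genes, 183 were called in NB4, and 0 to 730 under the alternatives (0 to 396 leaving out 1 sample, 543 without the pair numbered 2). In Kasumi-1 there were 4 (0 to 93), for the difference 0 (0 to 185) and between controls 6449 (4751 to 6589). The split in NB4 was 170 higher and 13 lower, 595 and 135 with the block, and 188 and 203 with the block and median centring. Between controls it was 3659 higher and 2790 lower in Kasumi-1, and 3004 and 3585 after TPM scaling. The unknown depth leaves the values of MRC1, CD163, MSR1 and, in Kasumi-1, CD36 without a limit of detection.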

Other observations

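Genes of the related lists differed between the untreated lines in both directions, and those given here were chosen after their values were seen. VSIG4, a complement receptor of tissue macrophages, was at 21.7, 26.4 and 24.9 FPKM in the Kasumi-1 controls and at 0.0346, 0.102 and 0.365 FPKM in the NB4 controls (log2 difference 6.71, adjusted p = 5.2e-07 from limma). With OGP46 it stayed between 23.2 and 26.6 FPKM in Kasumi-1. It was thus above CD68 in every Kasumi-1 sample, whereas MRC1 and CD163, other genes used to recognise tissue macrophages, were at or near 0 there. The highest of the NB4 control values was in sample 3, the one with CD34 and KIT.

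The scavenger receptors SCARF1 and STAB1 differed in opposite directions. SCARF1 was at 3.24, 3.11 and 2.37 FPKM in the Kasumi-1 controls and under 0.04 FPKM in the NB4 controls (log2 difference 4.63, adjusted p = 8.1e-08 from limma). STAB1 was at 9.27, 9.09 and 9.28 FPKM in the NB4 controls and 0.362, 0.427 and 0.208 FPKM in the Kasumi-1 controls (log2 difference −4.47, adjusted p = 1.2e-07 from limma). TYROBP was at 17.2 FPKM in the NB4 controls and 0.345 FPKM in those of Kasumi-1 (means of 3, log2 difference −5.36).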
